A study of Homo sapiens with 2 samples.

Results

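Ewing sarcoma cells are driven by a fusion of EWSR1, a gene of the FET family, with FLI1 or less often another gene of the ETS family, and 9 genes of these families were followed here across single cells of 2 Ewing sarcoma lines. The genes were given by name and not by a cut on a measured value, but earlier results of these data were known. EWSR1 and TAF15 are of the FET family, and FLI1, ERG, ETS1, ETV1, ETV4, ETV6 and ELK1 of the ETS family. They were 9 of 33538 genes in each deposited table. The lines were CHLA9, grown in IMDM with serum and insulin-transferrin-selenite, and TC71, grown in RPMI medium with a lower share of serum, each an untreated culture measured in 1 droplet library. Neither library had a replicate, and line, medium and sequencing run changed together and cannot be told apart. No comparison below therefore carries a test, and every interval is at the 95% level and covers counting error only. Each line derives from the tumour of a single patient, and no normal cell was measured beside them.

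FET proteins bind RNA and take part in transcription and splicing, and their amino-terminal part is a strong activation domain when it is joined to another protein. ETS proteins are transcription factors that recognise a GGAA core in DNA, through a domain that the fusion keeps from its ETS partner. In Ewing sarcoma the fusion is transcribed from the EWSR1 promoter and ends in the exons of FLI1, so counting from the 3′ end of transcripts places it under FLI1. A FLI1 count thus cannot separate the fusion from intact FLI1, whereas an EWSR1 count from the 3′ end comes from the intact gene or from a reciprocal fusion. ERG replaces FLI1 in some tumours, and ETV1 and ETV4 do so rarely.

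Cells were kept when they held at least 5000 UMIs (unique molecular identifiers, each marking 1 captured transcript) and at least 2000 genes, with at most 15% of UMIs from mitochondrially encoded genes. This left 4524 of 5077 barcodes (89.1%) in CHLA9 and 1729 of 8468 (20.4%) in TC71. Kept cells held a median of 34656 UMIs in CHLA9 and 33370 in TC71, and 174975302 and 58355173 UMIs in all. The libraries shared 3 of the kept barcodes. All 10 Ewing sarcoma markers, among them CD99 and NKX2-2, stood at or above 5 UMIs per 1000000 UMIs (CPM) in both lines. All 5 endothelial markers were below that level, with a summed level of 0.223 CPM in CHLA9 and 0.0685 in TC71, and VWF, KDR and TEK were at 0 in both lines. Of 5 blood markers only CD79A, a B cell receptor component, reached it, at 10.1 in each line, and CD3E and HBB were at 0 in both.

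Where the genes lie was read from GENCODE 44 on GRCh38. EWSR1 lies at chr22:29268009-29300525 and FLI1 at chr11:128686535-128813267, both on the plus strand, which are the 2 ends of the translocation. ETS1 lies beside FLI1 on the same chromosome at chr11:128458761-128587558 and is read from the minus strand. TAF15 lies at chr17:35809482-35864615 and ETV6 at chr12:11649674-11895377 on the plus strand. ERG at chr21:38380027-38661780, ETV1 at chr7:13891229-13991425, ETV4 at chr17:43527844-43579620 and ELK1 at chrX:47635521-47650604 are on the minus strand. No measured gene overlapped a member on the same strand. ETV4 lies within DHX8 on the opposite strand.

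RefSeq start sites on GRCh38.p14 were available for 5 of the 9 genes (EWSR1, ERG, ETV1, ETV6 and ELK1). The promoters of ETV1 and ELK1 are shown because these genes were higher in TC71, and that of ETV6 because it was higher in CHLA9. Each sequence is the 250 bases before the most upstream start, 5′ to 3′ on the strand of the gene, with every GGAA, the ETS core, and its reverse complement TTCC in capitals.

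ETV1, chr7:13991426-13991675, minus strand: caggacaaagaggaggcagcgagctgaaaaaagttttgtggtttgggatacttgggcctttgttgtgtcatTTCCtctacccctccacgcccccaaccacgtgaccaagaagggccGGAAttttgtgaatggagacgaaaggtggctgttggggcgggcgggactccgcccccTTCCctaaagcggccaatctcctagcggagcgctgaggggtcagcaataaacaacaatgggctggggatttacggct
ETV6, chr12:11649424-11649673, plus strand: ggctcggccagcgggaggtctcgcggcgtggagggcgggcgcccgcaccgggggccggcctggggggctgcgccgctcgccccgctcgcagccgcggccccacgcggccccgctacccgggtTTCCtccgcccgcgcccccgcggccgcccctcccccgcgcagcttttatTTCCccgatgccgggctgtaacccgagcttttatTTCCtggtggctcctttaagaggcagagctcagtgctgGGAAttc
ELK1, chrX:47650605-47650854, minus strand: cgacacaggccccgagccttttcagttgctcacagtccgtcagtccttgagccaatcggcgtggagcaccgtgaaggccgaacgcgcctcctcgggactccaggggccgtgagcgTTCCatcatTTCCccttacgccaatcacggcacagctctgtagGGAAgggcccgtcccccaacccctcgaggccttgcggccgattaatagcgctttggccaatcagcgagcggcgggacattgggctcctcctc

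The ETV1 window held 3 ETS cores, the ETV6 window 4 and the ELK1 window 3. These numbers are common: over 35114 RefSeq promoter windows of the same length, both strands counted and overlaps allowed, the median was 3, with at least 3 in 55.1% and at least 4 in 34.3%. The 8-base repeat GGAAGGAA, a form of the repeat that the fusion is known to bind, was in none of the 3 windows and on either strand in 3.06% of all windows. It was present in 2 of the 6 RefSeq start windows of ETV1, which overlap each other. No binding was measured, so these matches describe sequence only.

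EWSR1, TAF15, FLI1 and ETV6 were higher in CHLA9, by less than 2-fold, and ETV1 and ELK1 were higher in TC71 by more than 2-fold. ERG gave no UMI in either line, and ETS1 and ETV4 gave almost none. Levels in CPM are summed UMIs of the kept cells per 1000000 UMIs. A 3′ library captures each transcript once whatever its length, so values were not divided by length, and each gene is compared with itself between the lines.

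EWSR1 stood at 153 CPM in CHLA9 (26795 UMIs, interval 151 to 155) and 101 CPM in TC71 (5876 UMIs, 98.1 to 103). It was higher in CHLA9 by 0.60 on the log2 scale (0.56 to 0.65). TAF15, which like EWSR1 couples RNA binding to transcription by RNA polymerase II, stood at 159 CPM in CHLA9 (27813 UMIs) and 87.3 CPM in TC71 (5092 UMIs). Its log2 difference was 0.87 (0.82 to 0.91).

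FLI1, the usual ETS partner, stood at 38.2 CPM in CHLA9 (6682 UMIs, 37.3 to 39.1) and 23.0 CPM in TC71 (1342 UMIs, 21.8 to 24.3). Its difference of 0.73 on the log2 scale (0.65 to 0.82) lay between those of EWSR1 (0.60) and TAF15 (0.87). ETV6, a repressor known from leukaemia fusions, stood at 19.5 CPM in CHLA9 (3408 UMIs) and 10.9 CPM in TC71 (638 UMIs), a log2 difference of 0.83 (0.71 to 0.96). All 4 of these genes thus lay above the median log2 difference of all genes tested, which was itself 0.21 towards CHLA9.

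ETV1, a member of the PEA3 group of ETS activators, went the other way. It gave 266 UMIs in CHLA9 (1.52 CPM) and 460 UMIs in the smaller TC71 library (7.88 CPM), and was 5.19-fold higher in TC71, a log2 ratio of CHLA9 over TC71 of -2.37 (-2.60 to -2.15). One CHLA9 cell held 16 of its 266 UMIs, and without this cell ETV1 was 5.52-fold higher in TC71. ELK1, which joins serum response factor at growth-induced genes, was at 16.1 CPM in CHLA9 (2812 UMIs) and 37.0 CPM in TC71 (2162 UMIs). It was 2.31-fold higher in TC71, a log2 ratio of -1.20 (-1.29 to -1.12).

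ERG, a factor of endothelial and blood stem cells, had 0 UMIs in both lines, which allows a level of up to 0.0171 CPM in CHLA9 and 0.0514 CPM in TC71. ETS1, known from lymphoid and endothelial cells, had 0 UMIs in CHLA9 and 2 in TC71, both at or under that limit of 3 counts. ETV4, also of the PEA3 group, had 2 UMIs in CHLA9 and 11 in TC71, and the log2 ratio of -4.04 had a counting interval from -7.26 to -1.85.

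**Figure D1:**
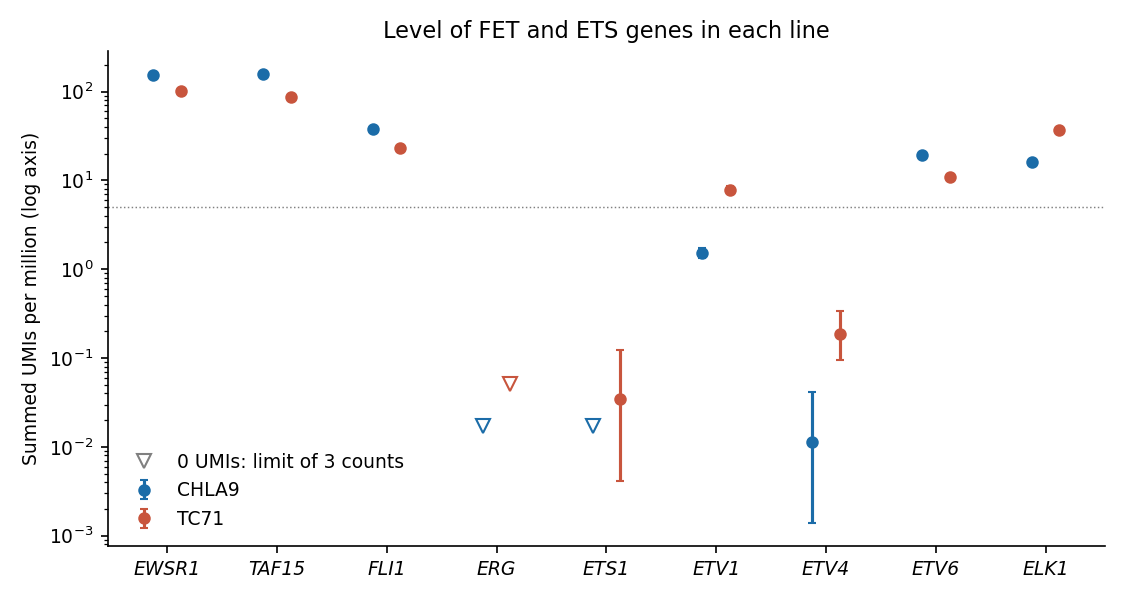
Level of each gene in CHLA9 and TC71 as CPM, on a log axis, with bars for the exact 95% Poisson interval, which are mostly narrower than the points. Open triangles mark the limit of 3 counts where a gene had 0 UMIs, and the dotted line marks 5 CPM. Within a gene, EWSR1, TAF15, FLI1 and ETV6 were higher in CHLA9 and ETV1 and ELK1 in TC71.

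A gene was compared further if it reached 5 CPM in 1 line or more, and 6 of the 9 members did. At a fold of at least 2, 0 of these 6 were higher in CHLA9, against 17.5% of the 10774 genes tested. Of the 6, 2 (ETV1 and ELK1) were lower in CHLA9, against 10.5% of all genes. ETV1 reached the minimum only in TC71 (7.88 CPM, against 1.52 in CHLA9), so the direction of its call was partly set by that filter. With the median of all genes subtracted these shares of all genes became 12.8% and 13.6%, with the same members called. At 1.5-fold, EWSR1, TAF15, FLI1 and ETV6 were higher in CHLA9, 4 of 6 against 32% of all genes, and ETV1 and ELK1 lower, against 17.7%. EWSR1 was at 1.52-fold, so its call was close: its log2 difference was 0.53 without mitochondrial and ribosomal protein genes in the total, under that fold. With the median of all genes subtracted, EWSR1 (0.39) and FLI1 (0.52) were under it and TAF15 (0.65) and ETV6 (0.62) past it. The median over the 6 members was 0.67 on the log2 scale.

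Of the 21 other ETS genes, 10 passed the minimum, and at 2-fold 2 were higher and 1 lower in CHLA9. FEV, an ETS factor of serotonergic neurons and a rare partner of EWSR1, moved in the same direction as ETV1 and by more. It gave 67 UMIs in CHLA9 (0.383 CPM) and 1294 in TC71 (22.2 CPM), 57.9-fold higher in TC71. Like ETV1, it passed the minimum only through TC71. ETV5, the third PEA3 gene, was at 67.6 CPM in CHLA9 and 29.0 CPM in TC71, so the PEA3 genes ETV1 and ETV5 differed in opposite directions. ERF, a repressor of the ETS family, was at 46.4 CPM in CHLA9 and 21.2 CPM in TC71. ELF1 (41.0 and 31.3 CPM), ELF2 (52.0 and 31.8), ETS2 (35.3 and 23.3), ELK4 (22.6 and 18.0) and ETV3 (12.1 and 6.67) were higher in CHLA9 by less than 2-fold. ELK3 (9.44 and 12.9 CPM) and GABPA (23.0 and 28.5) were lower by less than 2-fold. Thus ELK1 and ELK3 were higher in TC71, while ELK4, the remaining gene of their subfamily, was higher in CHLA9.

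**Figure D2:**
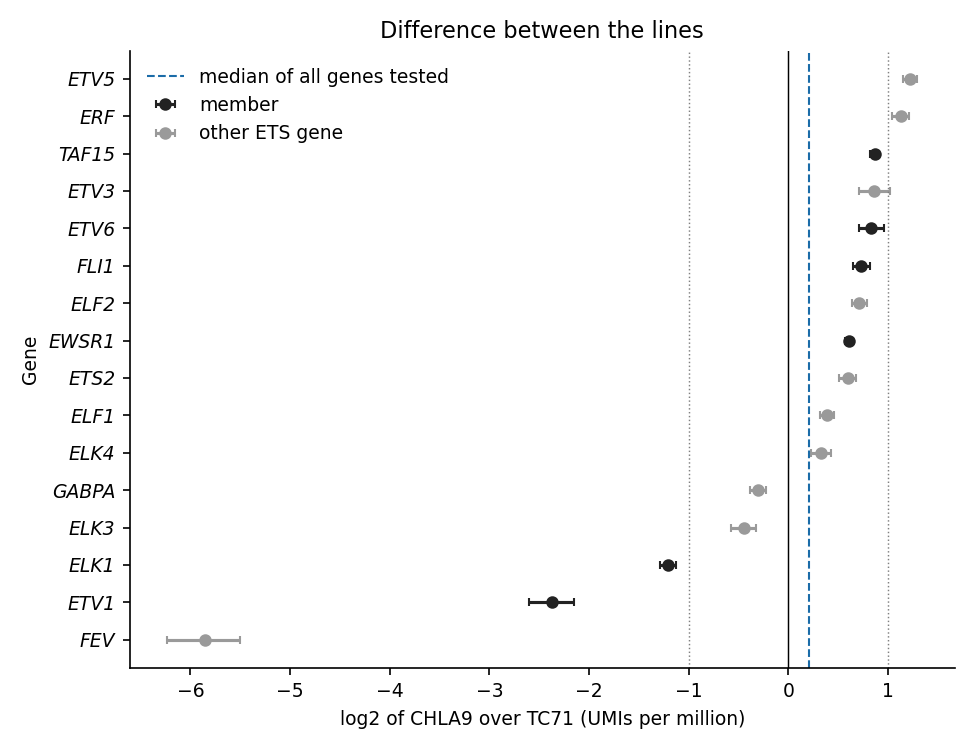
Log2 ratio of CHLA9 over TC71 in CPM for the 6 members and 10 other ETS genes that reached 5 CPM, with bars for the exact 95% interval. Dotted lines mark 2-fold and the dashed line the median of all genes tested, 0.21. FEV, ETV1 and ELK1 lie beyond 2-fold towards TC71, and ERF and ETV5 beyond 2-fold towards CHLA9.

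To compare shares of cells at 1 depth, each cell was thinned to 5000 randomly drawn UMIs, and no kept cell was shallower. EWSR1 had a UMI in 53.1% of CHLA9 cells (51.7 to 54.6) and 39.4% of TC71 cells (37.1 to 41.8), and before thinning in 98.4% and 91.6%. TAF15 had one in 49.9% (48.4 to 51.4) and 33.0% (30.8 to 35.3), before thinning in 95.7% and 85.4%. At its own depth a TC71 cell thus lacked a TAF15 UMI more often than a CHLA9 cell did, with no TAF15 UMI in 253 of 1729 TC71 cells and 195 of 4524 CHLA9 cells.

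FLI1 had a UMI in 16.7% of CHLA9 cells (15.7 to 17.9) and 10.9% of TC71 cells (9.44 to 12.4) after thinning, and in 74.1% and 50.0% before. A second draw gave 18.7% in CHLA9, and the mean over all possible draws was 17.3%. An absent UMI at this depth does not show a cell without the transcript. ETV6 had a UMI in 8.97% and 4.11% of thinned cells and in 47.6% and 28.5% of unthinned ones.

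ELK1 had a UMI in 6.72% of CHLA9 cells (6.01 to 7.49) and 16.4% of TC71 cells (14.7 to 18.2) after thinning, with 7.61% and 16.8% as means over all draws, and in 43.5% and 66.3% before. ETV1 had one in 0.752% (0.521 to 1.05) and 3.35% (2.56 to 4.32), and before thinning in 5.06% and 20.9%. FEV had one in 0.155% and 8.85% of thinned cells. ERG had a UMI in 0 of 4524 cells, which by the limit of 3 counts allows up to 0.0663% of cells with a captured UMI, and in 0 of 1729, which allows up to 0.174%. This limit says nothing of cells whose ERG transcripts were not captured. No cell type lacking these genes was in the libraries to give a level for free RNA. Of markers of other cell types, VWF, KDR, TEK, CD3E, HBB and TTR were found in 0 cells of either line. Before thinning, others were found: CD79A in 26.0% of CHLA9 and 24.6% of TC71 cells, the hepatocyte marker APOA1 in 2.41% and 5.38%, and CDH5 in 0.818% and 0.231%. PTPRC, PECAM1, CD34 and ALB were in at most 0.289% of cells. These lists set no background level for ERG.

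Among the members, the variance over the mean of UMIs per cell was highest for TAF15 in CHLA9. In TC71 TAF15 was highest only by little, with ETV6 and FLI1 at 1.06, and no interval was computed. At 5000 UMIs per cell the variance over the mean of UMIs per cell, which is 1 for pure counting, was 1.23 for TAF15 in CHLA9, above 96.1% of the 8604 genes with a mean of at least 0.05. In TC71 it was 1.08, above 81.7% of 8142 genes. The medians over these genes were 1.02 and 1.03. EWSR1, with a mean near that of TAF15 (0.771 and 0.764 UMIs in CHLA9, 0.512 and 0.420 in TC71), was at 1.01 and 1.05. FLI1 was at 1.03 and 1.06. At a given relative spread this ratio grows with the mean of a gene. Members of low mean, such as FLI1, ETV6 and ELK1, thus lie near 1 and cannot be set against TAF15. The percentiles are likewise against genes of unlike means. At full depth CHLA9 cells held a median of 5 TAF15 UMIs, with 13 at the 90th percentile and 53 in the highest cell, and a median of 5 EWSR1 UMIs, with 10 at the 90th percentile and 37 in the highest.

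TAF15 fell with the share of mitochondrial UMIs in a cell in both lines. Across 4 equal bins of CHLA9 cells from the lowest to the highest mitochondrial share (medians 5.81%, 7.11%, 8.12% and 9.48%), TAF15 was at 194, 170, 148 and 122 CPM. In TC71 it was at 98.5, 93.7, 87.9 and 68.4 CPM. The log2 ratio of the highest over the lowest bin was -0.66 in CHLA9 (-0.71 to -0.61) and -0.53 in TC71 (-0.65 to -0.41). Only 0.5% of the 10000 genes at or above 5 CPM in CHLA9 had a lower ratio, and 0.661% of 9833 in TC71. At a change of at least 0.32 on the log2 scale, TAF15 was 1 of 5 members called lower in CHLA9, against 4.9% of all genes, and 1 of 6 in TC71, against 5%. No member was called higher in CHLA9, where 1.06% of all genes were.

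This order was also seen at similar depth. Within 4 equal bins of cells by total UMIs, the cells above the median mitochondrial share of the bin had less TAF15 than those below it in 4 of 4 bins in each line, with log2 ratios from -0.45 to -0.34 in CHLA9 and from -0.46 to -0.28 in TC71. Over all cells TAF15 was also higher in deeper cells, at 123 CPM in the shallowest bin of CHLA9 and 174 CPM in the deepest, and at 78.4 and 95.0 CPM in TC71. At the same 0.32 it was 1 of 5 members called higher with depth in CHLA9, against 10.8% of all genes, and no member was called lower, against 4.14% in CHLA9 and 4.8% in TC71. The part of mitochondrial share and depth in the spread of TAF15 over cells was not tested.

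EWSR1, the other FET gene, moved little: from the lowest to the highest mitochondrial bin it went from 160 to 143 CPM in CHLA9 (log2 ratio -0.17) and from 97.5 to 99.9 CPM in TC71 (0.03). FLI1 went from 40.6 to 36.9 CPM in CHLA9 and from 23.1 to 24.5 CPM in TC71. ETV6 was the member called higher in TC71, both with mitochondrial share (8.57 to 11.2 CPM, against 8.14% of all genes) and with depth (9.25 to 12.6 CPM, against 9%), and its log2 ratios had wide intervals (0.03 at the lower end for mitochondrial share and 0.08 for depth). In CHLA9 it went from 19.3 to 18.7 CPM and from 18.6 to 20.4 CPM.

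**Figure D3:**
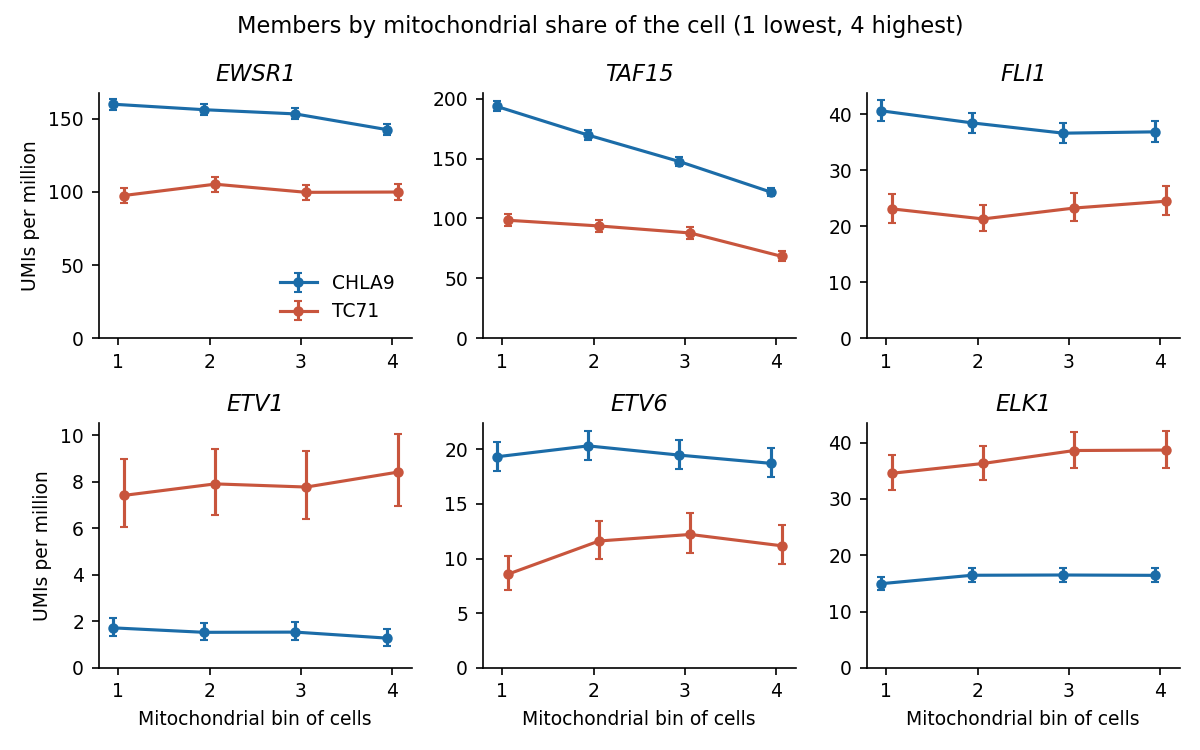
CPM of 6 members in 4 equal bins of the cells of each line, ordered by the share of mitochondrial UMIs from lowest (1) to highest (4), with bars for the exact 95% Poisson interval. TAF15 falls from 194 to 122 CPM in CHLA9 and from 98.5 to 68.4 CPM in TC71, while the other members change less in CHLA9.

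The genes most like each FET gene and FLI1 were sought by Spearman correlation over thinned cells, among 5384 genes with at least 20 CPM in both lines. For TAF15, a search added after its spread was seen, they were HNRNPU (rho 0.19 in CHLA9 and 0.12 in TC71), NCL (0.16 and 0.14), MALAT1 (0.14 and 0.13), SFPQ (0.12 and 0.10) and HNRNPA3 (0.12 and 0.10). MALAT1 is a long noncoding RNA kept in the nucleus, NCL encodes nucleolin, and the other 3 encode nuclear RNA-binding proteins. For EWSR1 they were HSP90AA1, HNRNPU, SET, HNRNPA3 and NCL, with a mean rho of at most 0.077, and for FLI1 KIF11, C16orf72, SPART, ZNF638 and ASPM, with at most 0.053. The cells of a line share 1 library, and the correlations for EWSR1 and FLI1 are too weak to be read as findings. From the lowest to the highest mitochondrial bin, NCL went from 1683 to 1267 CPM in CHLA9 and from 2578 to 1926 CPM in TC71 (log2 ratios -0.41 and -0.42). HNRNPU went from 1442 to 1074 CPM in CHLA9 (-0.43) and from 820 to 757 CPM in TC71 (-0.12), and MALAT1 from 19638 to 13913 CPM (-0.50) and from 7599 to 6686 CPM (-0.18). In every depth bin of CHLA9, cells of higher mitochondrial share had less of each of these genes. The ratios there ran from -0.30 to -0.25 for NCL, -0.31 to -0.22 for HNRNPU and -0.39 to -0.11 for MALAT1. Within the depth bins of TC71, NCL had ratios from -0.35 to -0.21 and HNRNPU from -0.06 to 0.02. MALAT1 went from -0.30 in the shallowest TC71 bin to 0.0038 in the deepest, where TAF15 was at -0.32.

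For pairs with enough cells, the counting interval of the cells seen with both held the number that separate detection would give. Of 36 pairs, 10 in CHLA9 and 9 in TC71 had at least 20 cells expected with both at 5000 UMIs, the product of the 2 shares times the cells. EWSR1 and FLI1 were seen together in 420 CHLA9 cells against 402 expected, a ratio of 1.04 (0.947 to 1.15). In TC71 they were together in 80 cells against 74.2, a ratio of 1.08 (0.855 to 1.34). FLI1 was found in 17.5% of CHLA9 cells with an EWSR1 UMI and 15.9% of those without.

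EWSR1 and TAF15 were together in 1213 CHLA9 cells against 1200 expected (1.01, 0.955 to 1.07) and in 252 TC71 cells against 225 (1.12, 0.985 to 1.27), the highest ratio in TC71. Ratios ran from 0.885 (FLI1 with ELK1) to 1.10 (ETV6 with ELK1) in CHLA9, with a median of 1.03, and from 0.870 (TAF15 with FLI1) to 1.12 in TC71, with a median of 1.02. The interval of every one of these ratios held 1. These intervals take the joint count as Poisson and the expected number as fixed. They are thus wider than the spread of an overlap at given shares, and do not exclude a joint excess or lack. In TC71, TAF15 was found in 37.0% of cells with an EWSR1 UMI (33.3 to 40.7) and 30.5% of those without (27.7 to 33.4). In CHLA9 these shares were 50.5% and 49.3%. A second draw gave EWSR1 with TAF15 a ratio of 1.10 in TC71. For EWSR1 with FLI1 that draw gave 0.959 in CHLA9 and 0.994 in TC71, below 1 in both. TAF15 with FLI1 in TC71 was at 0.891 in that draw, 1.04 at 10000 UMIs and 1.02 without thinning. A cell showed a median of 1 member in each line after thinning, and 16.9% of CHLA9 and 29.0% of TC71 cells showed none.

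**Figure D4:**
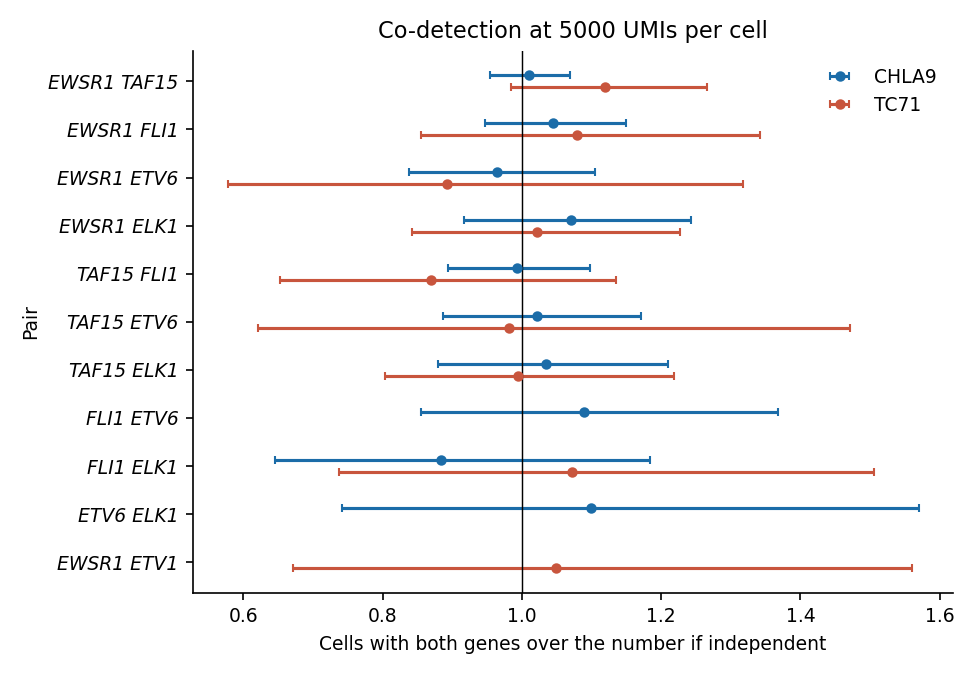
Number of cells with a UMI of both genes of a pair, divided by the number if the 2 genes were found independently, at 5000 UMIs per cell, for pairs with at least 20 cells expected. Bars are exact 95% Poisson intervals of the joint count over the expected number, which is taken as fixed, and every one crosses the line at 1.

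The summed level of known fusion targets differed little between cells with and without a UMI of either fusion gene, but this split cannot sort cells by fusion level. FLI1 had a UMI in 16.7% of CHLA9 cells after thinning and 74.1% before, and in 10.9% and 50.0% in TC71. Many cells without a FLI1 UMI at this depth thus held one at full depth. Of the summed level of the 9 activated targets, CCND1 alone gave 2510.5 of 3275 CPM in all kept CHLA9 cells and 1451 of 2188 in TC71. These targets stood at 3259 CPM in thinned CHLA9 cells with a FLI1 UMI and 3321 CPM in those without (log2 ratio -0.03, -0.06 to 0.00073). In TC71 they stood at 2196 and 2173 CPM (0.01, -0.05 to 0.08). Split by EWSR1 UMIs, which do not report the fusion in a 3′ library, the log2 ratios were -0.01 in CHLA9 and -0.02 in TC71. The 5 repressed targets gave few UMIs, at 19.3 CPM in CHLA9 cells without a FLI1 UMI and 16.9 in TC71 cells without one, and the intervals of their ratios spanned 0.

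Cells were given a cell cycle phase from expression scores of S and G2M genes, none of which is a member. In CHLA9 22.8% of cells were in G1, 36.6% in S and 40.6% in G2M, and in TC71 24.8%, 30.5% and 44.7%. G1 cells were shallower than G2M cells, with medians of 29324 and 40758 UMIs in CHLA9 and 30362 and 36121 in TC71. The calls in TC71 moved with the scoring, from 13.1% to 29.1% in G1 and from 25.3% to 48.4% in S, so that small differences between TC71 phases rest on that choice.

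G2M cells held more FLI1 than G1 cells in both lines. It stood at 35.9 CPM in G1, 37.9 in S and 39.3 in G2M in CHLA9, a log2 ratio of G1 over G2M of -0.13 (-0.23 to -0.03). In TC71 it stood at 18.7, 23.1 and 24.97 CPM, a ratio of -0.42 (-0.63 to -0.20). With G2M cells weighted so that the 4 depth bins held the same shares as in G1, the ratios were -0.18 and -0.42. S and G2M were not separated: the S over G2M interval held 0 in both lines (-0.13 to 0.02 in CHLA9, -0.30 to 0.06 in TC71). In thinned cells the share with a FLI1 UMI was 14.0% in G1, 18.2% in S and 17.0% in G2M of CHLA9, and 8.18%, 9.66% and 13.2% in TC71.

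ETV1 was also lower in G1 than in G2M, with larger ratios. In TC71 it stood at 5.44 CPM in G1, 7.17 in S and 9.47 in G2M (G1 over G2M -0.80, -1.20 to -0.42). In CHLA9 it stood at 0.673, 1.57 and 1.82 CPM, of which G1 rested on 22 UMIs (-1.44, -2.16 to -0.79). The CHLA9 cell with 16 ETV1 UMIs was in G2M, where the level without it was 1.63 CPM.

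TAF15 was lower in G1 than in G2M in both lines, at 143 and 167 CPM in CHLA9 (-0.23, -0.27 to -0.18) and 73.5 and 88.1 CPM in TC71 (-0.26, -0.37 to -0.15). With the same weighting by depth bins, the ratios were -0.15 and -0.22. G1 cells had a higher median mitochondrial share than G2M cells in CHLA9 (8.16% and 7.26%) and a lower one in TC71 (8.88% and 9.14%), and its part in the TAF15 difference was not tested. EWSR1 had no common order: in CHLA9 it stood at 167 CPM in G1, 139 in S and 158 in G2M, lowest in S, and in TC71 at 92.4, 109 and 99.3 CPM, highest in S. ETV6 stood at 19.5, 18.5 and 20.2 CPM in CHLA9 and 10.2, 9.41 and 12.2 CPM in TC71, and the intervals of G1 over S held 0 in both lines. It was lower in S than in G2M in both, with ratios of -0.13 (-0.24 to -0.02) in CHLA9 and -0.38 (-0.66 to -0.11) in TC71. Its G1 over G2M ratio in TC71, -0.26, became -0.89 with phases scored on genes in at least 10 cells and -0.58 with phases on thinned cells. ELK1 stood at 17.2, 16.05 and 15.6 CPM in CHLA9, where the interval of the G1 over G2M ratio held 0, and at 34.3, 39.1 and 37.1 CPM in TC71.

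At a difference of at least 0.32 on the log2 scale between phases, none of the 5 members tested in CHLA9 was called, where 6.92% of 10000 genes were higher and 14.1% lower in G1 than in G2M, and 8.95% higher and 10.3% lower in S. In TC71 2 of 6 members, FLI1 and ETV1, were lower in G1, against 21.5% of 9833 genes, and 0 were higher, against 2.88%. The count of members lower in G1 was 4 with phases scored on thinned cells and 3 with phases on genes in at least 10 cells. ETV1 and ETV6 were lower in S, 2 of 6 against 12.4% of genes, and 0 were higher, against 4.28%. These counts rest on 6 genes and are not read as a result about the families.

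**Figure D5:**
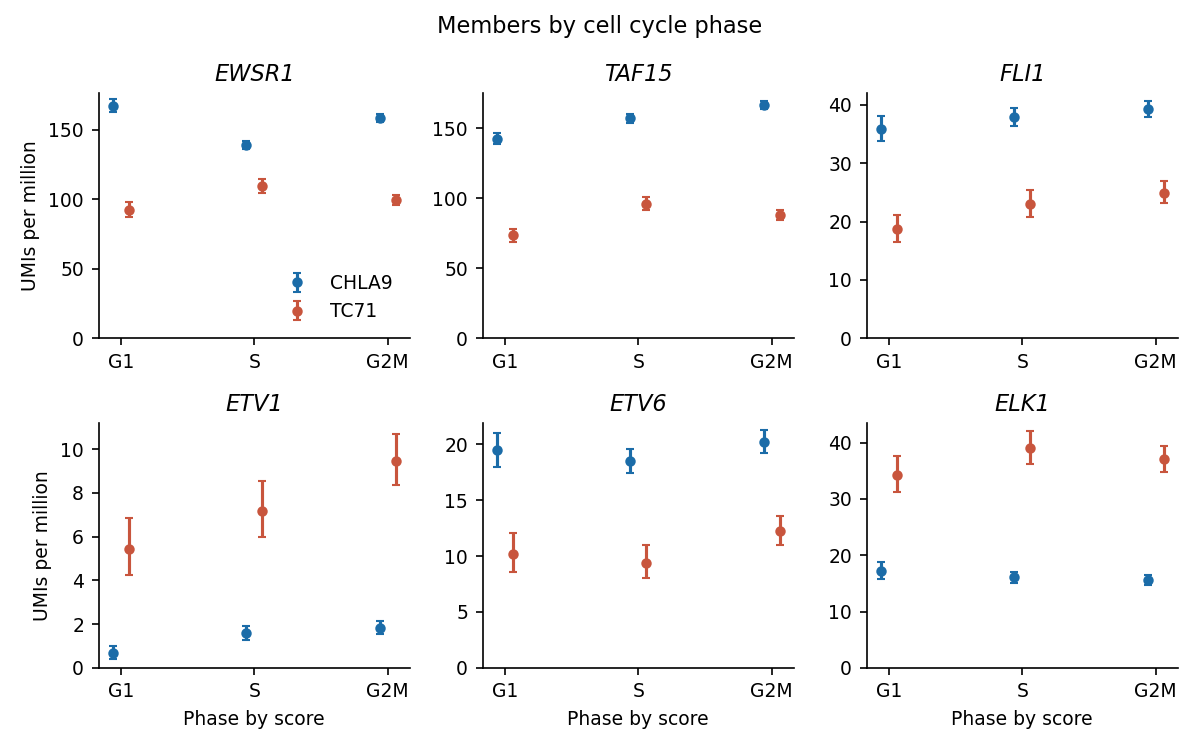
CPM of 6 members in the G1, S and G2M cells of each line, with bars for the exact 95% Poisson interval. G2M cells of both lines lie above G1 cells for FLI1 and ETV1, while EWSR1 is lowest in S in CHLA9 and highest in S in TC71.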

How the data were processed

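Both libraries were 3′ droplet libraries. The authors counted UMIs per gene and barcode with Cell Ranger 3.1.0 on hg38, per the submitters' processing notes, and deposited raw counts with no normalization. The CHLA9 library was also sequenced on a NovaSeq instrument. The annotation version was not given in the sources used here. Counts were summed over kept cells per line (CPM), with exact Poisson, Clopper-Pearson and conditional binomial intervals (scipy 1.17.1), none covering the spread between cultures. No doublet caller was run. Cells over 2 times the median UMIs were left out as an alternative. Phases came from CellCycleScoring of Seurat 5.3.0 per library (42 S and 52 G2M genes matched). Cells were thinned without replacement. Named genes were the 9 members, other ETS genes at 10 CPM or more in 1 line, and the 5 genes most correlated with FLI1 and with EWSR1. The 5 most correlated with TAF15 were added after its values were seen. Members and lists were chosen with earlier results of these data known. On counts simulated as Poisson, 95.5% of the line ratio intervals over 10163 genes held the planted value. The intervals assume such counts, so this checks their computation and not their fit to these cells. Promoters are from RefSeq (GRCh38.p14).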

Additional observations from a re-analysis of the deposited data

Results flagged for a closer look

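Both lines were given the same phase contrasts, and 2 members moved in opposite directions in them. For EWSR1, the log2 ratio of G1 over G2M was 0.080 in CHLA9 and -0.10 in TC71, that of S over G2M -0.19 and 0.14, and that of G1 over S 0.27 and -0.24. For TAF15, the ratio of S over G2M was -0.087 in CHLA9 and 0.13 in TC71. Over all genes tested the median ratio of G1 over G2M was -0.026 in CHLA9 and -0.11 in TC71, so EWSR1 in TC71 lay near the median gene. The medians of S over G2M were -0.015 and -0.034. With weighting by depth bins, EWSR1 was at 0.039 and -0.079 for G1 over G2M and at -0.17 and 0.16 for S over G2M. Since a line has 1 library, no test of these opposite signs was made. After scoring phases on thinned cells the S over G2M ratio in TC71 was 0.040 for EWSR1 and 0.035 for TAF15. With phases on genes in at least 10 cells it was 0.056 for EWSR1 and 0.051 for TAF15.

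Barcodes that failed the cell filters, which enter no comparison, also held member UMIs. Summed over the 9 members they stood at 274 CPM in 553 barcodes of CHLA9 and 205 CPM in 6739 barcodes of TC71, against 387 and 267 CPM in kept cells. TAF15 was at 97.6 CPM in these CHLA9 barcodes (159 CPM in kept cells) and 55.3 CPM in those of TC71 (87.3 CPM).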

How the results depend on the processing

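Of 440 values recomputed under an alternative, 392 stayed within their counting interval or within 1.5 times the count, and 48 moved. No value past a fixed fold changed sign. Below that, ETV6 in CHLA9 turned from -0.06 to 0.16 for G1 over G2M with depth weighting and to 0.02 with means over cells, and ELK1 in TC71 turned from 0.07 to -0.07 for S over G2M with phases on thinned cells and to -0.02 with phases on genes in at least 10 cells. The log2 difference between the lines became 0.53 for EWSR1 without mitochondrial and ribosomal protein genes in the total, and 0.39 for EWSR1, 0.52 for FLI1 and -1.42 for ELK1 after subtracting the median of all genes. At 1.5-fold, 4 members were higher in CHLA9. With no minimum level, 4249 genes were higher and 3639 lower in CHLA9 at 2-fold, in place of 1890 and 1129. The share of cells with a UMI followed the depth by construction: at 10000 UMIs and without thinning, EWSR1 had 77.8% and 98.4% in CHLA9 and 62.6% and 91.6% in TC71, and FLI1 32.0% and 74.1% in CHLA9 and 20.8% and 50.0% in TC71. A second draw gave 18.7% for FLI1 in CHLA9. With phases scored on thinned cells, EWSR1 in TC71 was at -0.21 for G1 over G2M and 0.040 for S over G2M, and 4 members were lower in G1. With a second scoring seed, and with means over cells, 1 member was lower in S in TC71. The cause was not tested for the phase values. Weighting by depth, the mean over all draws and the order by mitochondrial share were chosen after seeing the data. No paired analysis was possible because the libraries carry no replicate number and stand alone in their groups.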
